A study of Rattus norvegicus with 11 samples.

Results

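The proteasome subunit genes were followed in rat soleus muscle as the rows of the count table whose symbol is Psma, Psmb, Psmc, Psmd or Psme followed by a number. The rule takes 43 of 16810 rows and uses no measured value. By role these are 8 alpha chains and 7 constitutive beta chains of the core particle, 3 immunoproteasome beta chains (Psmb8, Psmb9 and Psmb10), the thymic beta chain Psmb11, 6 ATPases and 11 non-ATPase chains of the regulatory particle, 3 assembly chaperones of its base (Psmd5, Psmd9 and Psmd10) and 4 activators (Psme1 to Psme4). Of the 43, 41 passed the filter on low counts. Psma8, an alpha chain known from testis, had no count in any library, and Psmb11, known from thymic cortex, had at most 1 count per library, so neither was tested.

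The animals were 11 sons of Sprague Dawley dams, sampled at 12 months, each from its own litter, and all ate standard chow from weaning at day 21. The dams of 5 (the high-fat offspring) had received feed rich in saturated fat and sucrose from 3 weeks before mating until the end of lactation, given in the labels as 23.5% or 23.3% fat and 20% sucrose. The dams of the other 6 (the control offspring) had received a standard diet, given as 7% or 6% fat and 10% sucrose. The comparison therefore asks whether the mother's diet left a difference in the adult muscle of sons that shared the same feed, and the labels give no genetic change in either group.

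The proteasome is the protease that degrades ubiquitin-tagged proteins. Its core is a barrel of alpha rings that gate the entrance and beta rings that hold the active sites. The regulatory particle recognises ubiquitin, removes it and unfolds the substrate with a ring of ATPases. Where cells meet interferon, Psmb8, Psmb9 and Psmb10 take the places of Psmb5, Psmb6 and Psmb7 in newly built cores, and leukocytes carry much of this immunoproteasome. In skeletal muscle the proteasome is known as the main route by which contractile proteins are lost during wasting.

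Libraries held 10.2 to 15.4 M counts (M, mega), and members took 0.455% to 0.540% of them. Levels are given as counts per M counts after scaling by the trimmed mean of M values (CPM, TMM). Slow fibre genes of the soleus were abundant in both groups. Myh7, the slow myosin heavy chain, was at 21110.4 ± 2171 CPM (SD, n = 6) in control and 20779.9 ± 3817 CPM (SD, n = 5) in high-fat offspring. Fast fibre genes varied widely, with a summed level over 8 genes from 1651 CPM in control animal 3 to 33696 CPM in control animal 4. Control animal 5 stood apart in nerve sheath markers, with a summed level of 1908 CPM over 5 genes against 123 to 314 in the other 10 animals, and high-fat animals 1 and 4 in neutrophil markers, with 30.3 and 55.0 CPM against 2.69 to 8.91 in the other 9 animals. Libraries of the same group differed by 24.0 to 87.6 times the sampling noise in 25 pairs, and every library was kept as its own replicate. CPM values are not divided by transcript length, so levels are compared between animals and not between genes. In whole muscle, fewer cells of a type and less RNA per cell cannot be told apart.

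Maternal diet went with no detectable difference in any proteasome subunit mRNA. None of the 41 tested members passed edgeR's quasi-likelihood F test at an adjusted p of 0.05, against 0% of all 10814 genes, and none had an unadjusted p under 0.05, against 4.84% of all genes (523; 3.45% higher and 1.39% lower). DESeq2 called 7 genes of the whole table, edgeR's likelihood ratio test 8 and limma voom 0, and none of these was a member. The smallest unadjusted p among members was 0.260, for Psmd9, and the smallest adjusted p was 0.974. Fitted log2 fold changes (high-fat minus control) ran from -0.12 for Psmb6 to 0.21 for Psme2, with a median of 0.00, equal to the 0.00 over all genes. They were above 0 for 21 members and below 0 for 20, where 50.9% of all genes were above 0 and 49.1% below. This split depends on scaling: it was 28 to 13 with library size alone, which puts the median of all genes at 0.04, 19 to 22 with RLE scaling and 15 to 26 with upper quartile scaling. It also depends on single libraries, as it was 8 to 33 without high-fat animal 1 and 30 to 11 without high-fat animal 5. No member separated the 2 diet groups. Over all genes the share was 0.361%, so none among 41 members is near that share.

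**Figure D1:**
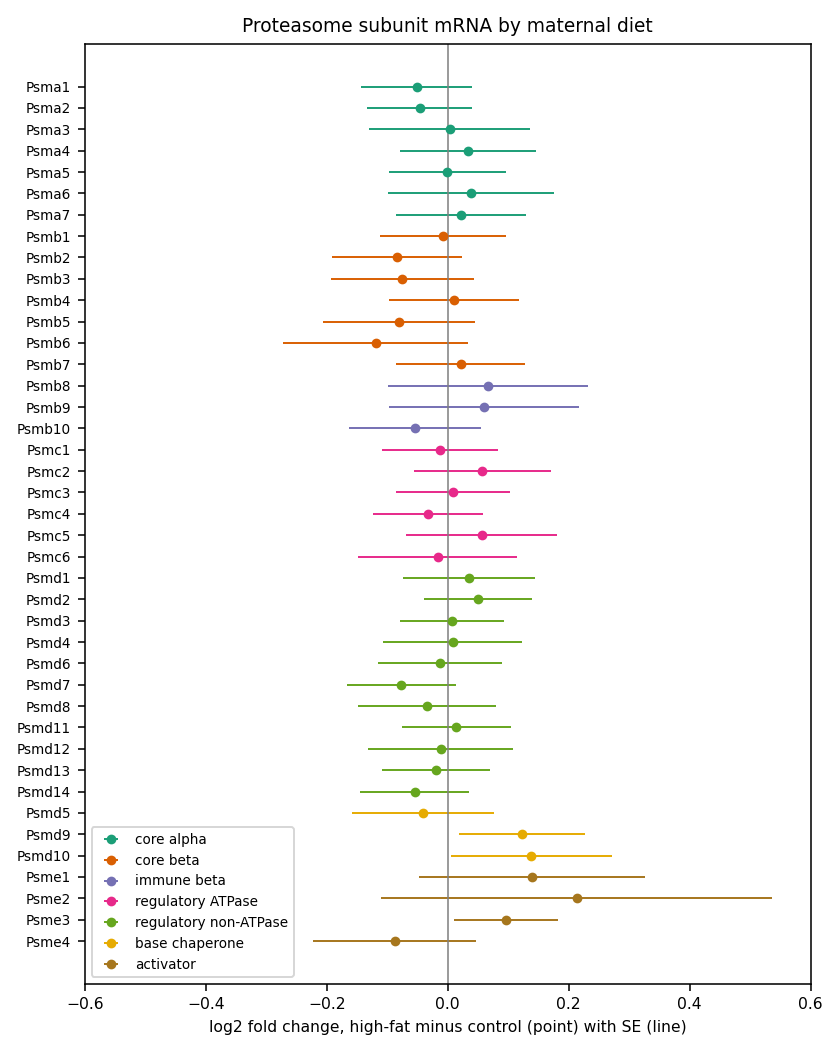
Fitted log2 fold change of each tested member (point, high-fat minus control, horizontal axis) with its standard error (line), coloured by class. The 31 core and regulatory particle members lie between -0.12 and 0.06, and Psme2 has the widest error, 0.32.

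These estimates were narrow. Over the 31 tested members of the core and regulatory particle, fold changes lay between -0.12 and 0.06 on the log2 scale with standard errors of at most 0.15. The biological coefficient of variation, which is the spread between animals beyond counting noise, had a median of 14.6% over members and 19.1% over all genes. It ran from 12.2% for Psme3 to 35.5% for Psme2. In counts simulated from these libraries for the same comparison, genes drawn from all those kept were changed together. Of these, 25.4% of those changed 1.5-fold were called, 59.7% of those changed 2-fold and 95.5% of those changed 4-fold. These rates are not those of the members or of 1 gene changing alone. A true change of 1.5-fold in a single member might still not have been called. The fitted folds of the core and regulatory particle members ran from 0.921 (Psmb6) to 1.04 (Psmc2). The least certain was that of Psme2, at 1.16 (log2 0.21 ± 0.32).

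The alpha chains, which form the outer rings and the gate, had a median fold change of 0.00 over 7 tested members, with 4 above 0 and 3 below. Psma1 ran from 92.9 CPM through a median of 102 to 122 in control offspring and stood at 107, 98.1, 100.5, 103 and 94.6 in the high-fat animals. All 5 high-fat values lay inside the control range, and the fitted log2 fold change was -0.05 ± 0.09 (SE; edgeR, adjusted p = 0.982). Psma2 ran from 59.5 through 68.5 to 73.1 CPM in control offspring and was 71.4, 62.5, 64.5, 67.6 and 58.0 in the high-fat animals, a fitted change of -0.05 ± 0.09. Only high-fat animal 5 was below the control range of Psma2. Psma3 shares an older symbol with the row Psma3l, which lies outside the rule. The 2 rows varied together over the 11 animals (r = 0.96), and reads of the short length used here may have been split between them.

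Among the 7 constitutive beta chains the median fold change was -0.07, with 2 members above 0 and 5 below. Psmb5 carries the chymotrypsin-like site, Psmb6 the caspase-like site and Psmb7 the trypsin-like site. Psmb5 ran from 204 through 222 to 308 CPM in control offspring and was 224, 261, 234, 222 and 195 in the high-fat animals. Control animals 4 and 6 were the high ones, and the groups overlapped (means 240.3 ± 42.3, SD, n = 6, and 227 ± 23.7, SD, n = 5; fitted log2 fold change -0.08 ± 0.13, and 0.00 without control animal 4). Psmb6 ran from 26.1 through 31.9 to 46.1 CPM in control offspring and was 37.2, 33.8, 32.9, 25.7 and 24.8 in the high-fat animals. Control animal 4 was again the highest and high-fat animals 4 and 5 were the lowest. Its fitted change of -0.12 ± 0.15 was the lowest of all members, became -0.01 without control animal 4 and turned to 0.05 without high-fat animals 4 and 5. Psmb7 ran from 231 through 275 to 302 CPM in control and was 303, 282, 265, 285 and 229.6 in high-fat offspring, with nearly the same span in both groups (0.02 ± 0.11). Psmb2, a beta chain without proteolytic activity of its own, ran from 61.1 through 71.9 to 88.3 CPM and was 74.3, 67.8, 69.8, 68.7 and 61.6 in high-fat offspring. Its high-fat values all lay inside the control range (-0.08 ± 0.11).

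None of the 3 immunoproteasome chains was called by diet, and their median fold change was 0.06. Psmb8 ran from 18.6 through 28.0 to 37.7 CPM in control offspring and was 28.1, 24.0, 27.7, 37.1 and 32.2 in the high-fat animals. Control animals 1 and 4 and high-fat animals 4 and 5 held the high values, control animal 6 the lowest, and the fitted log2 fold change was 0.07 ± 0.16 (edgeR, adjusted p = 0.985). It was -0.03 without control animal 6 or without high-fat animal 4. Psmb9 ran from 10.9 through 16.6 to 19.5 CPM in control offspring and was 15.6, 16.2, 17.6, 20.4 and 13.4 in the high-fat animals. The highest value belonged to high-fat animal 4 and the lowest to control animal 2, with a fitted change of 0.06 ± 0.16, which was -0.03 without either of them. Psmb10 ran from 22.2 through 24.3 to 32.7 CPM in control offspring and was 24.9, 24.0, 25.2, 24.4 and 24.5 in the high-fat animals. The SD of Psmb10 was 0.465 in high-fat (n = 5) and 4.12 in control offspring (n = 6), of which control animal 4 was the highest. At 225 to 410 counts per library, counting noise alone is wider than the smaller SD. Whether the spreads differ was not tested. The fitted change of Psmb10 was -0.05 ± 0.11, or 0.03 without control animal 4.

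**Figure D2:**
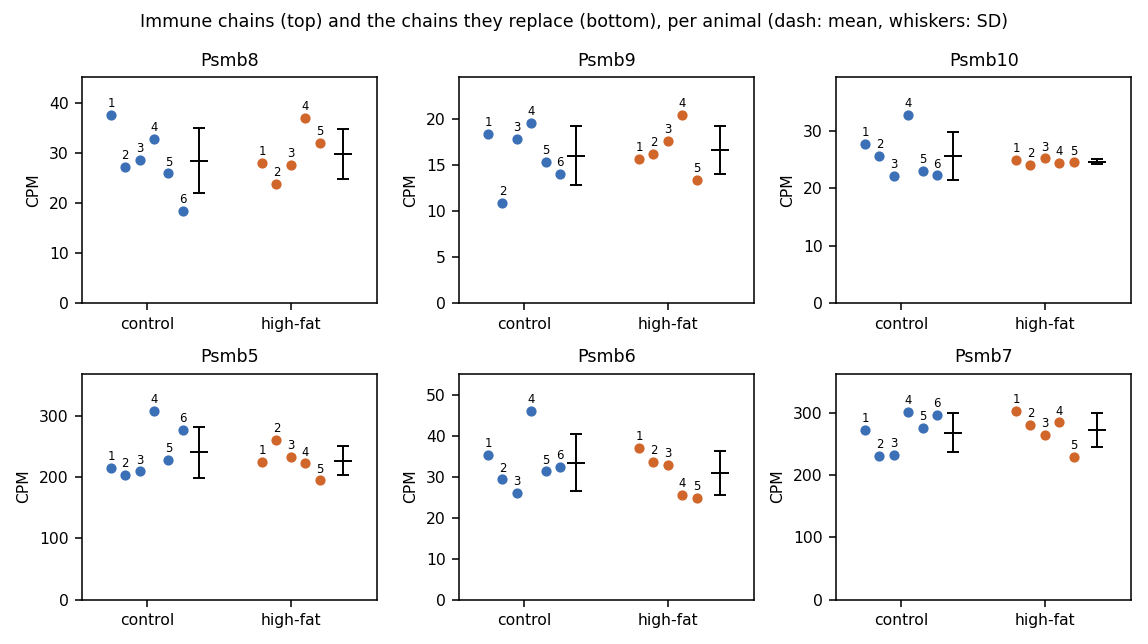
CPM of Psmb8, Psmb9 and Psmb10 (top) and of Psmb5, Psmb6 and Psmb7, whose places they take (bottom), in each numbered animal of both groups, with the mean (dash) and SD (whiskers). The groups overlap in all 6 panels, and the high-fat values of Psmb10 lie between 24.0 and 25.2.

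Each immune chain was also set against the chain whose place it takes, as a log2 ratio within a library. The Psmb8 to Psmb5 ratio ran from -3.89 in control animal 6 to -2.51 in control animal 1. The means were -3.08 ± 0.46 (SD, n = 6) and -2.93 ± 0.36 (SD, n = 5), a difference of 0.15 (exact permutation test over all splits of the 11 animals, two-sided p = 0.589) that became -0.01 without control animal 6. The Psmb9 to Psmb6 ratio averaged -1.06 ± 0.30 and -0.88 ± 0.34, and high-fat animal 4 was the highest at -0.33. The difference was 0.18 (exact permutation p = 0.377), and 0.04 without that animal. The Psmb10 to Psmb7 ratio averaged -3.39 ± 0.22 and -3.46 ± 0.15, with a difference of -0.06 (exact permutation p = 0.587). All 3 adjusted p-values were 0.589. Since transcript lengths differ, the size of a ratio does not give the share of immune cores.

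Leukocyte markers varied widely between animals, and Psmb8 went with them. The summed CPM of 18 leukocyte genes ran from 399 to 1179 in control and from 314 to 1500.4 in high-fat offspring. Macrophage genes were present, and so was Cd4, which macrophages of the rat also carry, at 22.3 ± 9.95 CPM (SD, n = 6) and 38.0 ± 33.7 CPM (SD, n = 5). The T cell gene Cd8a averaged 1.35 and 1.16 CPM, and Cd3e (T cells) and Cd79b (B cells) averaged under 1 CPM. Across the 11 animals log2 Psmb8 correlated with log2 of this sum at r = 0.65 (permutation p = 0.0274, adjusted over 6 relations 0.164) and rho = 0.81 (permutation p = 0.00373, adjusted 0.0224). Removing the diet means left r at 0.65. Without control animal 1 and high-fat animal 5, the 2 farthest from the median sum, r was 0.56. Leaving out control animal 1 gave r = 0.58, and leaving out either animal 2 or animal 4 of the high-fat offspring gave 0.61, each with a p above 0.05, and the adjusted p of r misses the threshold in any case. Psmb9 and Psmb10 had r of 0.21 and 0.07 with the same sum (permutation p = 0.540 and 0.844). Whether the 3 relations differ was not tested. Against 13 interferon-response genes, r was 0.12 for Psmb8, 0.46 for Psmb9 and -0.03 for Psmb10 (permutation p = 0.737, 0.160 and 0.918). Of the 15 leukocyte genes tested by diet, 14 had fold changes above 0 (median 0.43), where 50.9% of all genes were above 0, and none passed adjustment. The smallest p belonged to Cd163 (1.31 ± 0.45) and Mrc1 (0.90 ± 0.41), both macrophage receptors. Their changes were 0.96 and 0.63 without high-fat animal 5, which had the highest leukocyte sum. Without high-fat animal 2, which had the lowest, they were 1.56 and 1.14. The part of leukocytes in the Psmb8 level was not tested.

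**Figure D3:**
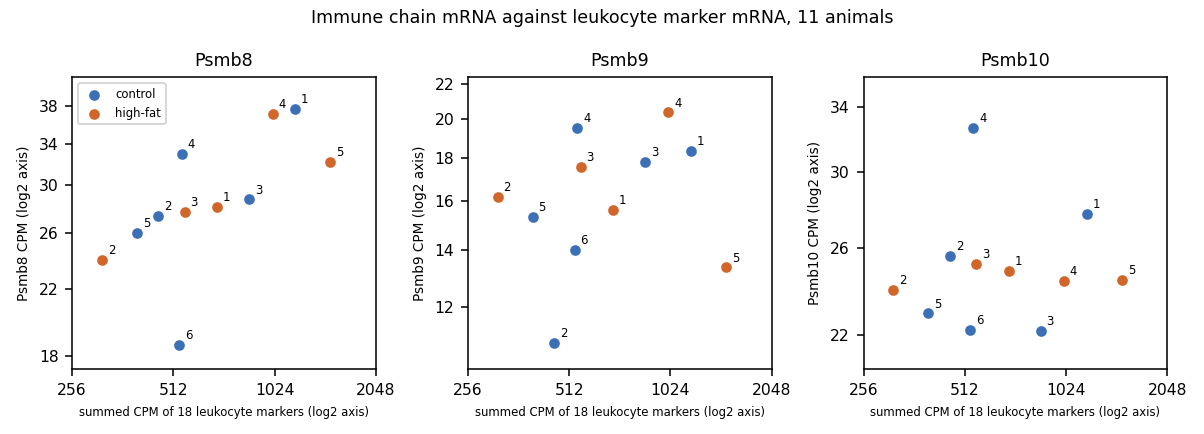
CPM of Psmb8, Psmb9 and Psmb10 (vertical, log2 axis) against the summed CPM of 18 leukocyte markers (horizontal, log2 axis) in the 11 numbered animals. Psmb8 is lowest in control animal 6, at 18.6 CPM, away from the run of the other points, and r is 0.65, 0.21 and 0.07 from left to right.

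In the regulatory particle, the 6 ATPases had a median fold change of -0.00 and the 11 non-ATPase chains one of -0.01. The median coefficient of variation of the non-ATPase chains, 13.0%, was the lowest of the classes. That of the ATPases, 14.3%, was close to those of the base chaperones (14.5%), alpha chains (14.6%) and constitutive beta chains (14.7%). Psmc2, an ATPase of the unfolding ring, ran from 169.8 through 200.1 to 222 CPM in control offspring and was 257, 204, 188, 204 and 172 in the high-fat animals. Psmc5, another ATPase of the ring, ran from 148 through 188 to 219 CPM and was 240.1, 183, 163, 200.5 and 169. In both, high-fat animal 1 lay above every control and the other 4 lay within the control range. Their fitted changes of 0.06 ± 0.11 and 0.06 ± 0.12 were each -0.04 without that animal. Psmd14, the metalloprotease that cuts ubiquitin from substrates, ran from 58.6 through 64.3 to 71.9 CPM in control and was 69.9, 56.3, 65.4, 62.3 and 60.1 in high-fat offspring (-0.05 ± 0.09). Its partner Psmd7 ran from 159.8 through 169 to 176 CPM in control and was 189, 153, 158, 159 and 139 in high-fat offspring. Psmd7 was above the control range in high-fat animal 1 and below it in the other 4, with a fitted change of -0.08 ± 0.09 (edgeR, adjusted p = 0.976).

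The 3 base assembly chaperones hold ATPases until the ring is built and are absent from the finished particle. Psmd9 ran from 17.8 through 20.7 to 23.8 CPM in control offspring and was 21.1, 20.1, 24.6, 24.4 and 22.4 in the high-fat animals. Psmd10, known in tumours as gankyrin, ran from 4.43 through 5.04 to 5.82 CPM and was 5.57, 5.22, 5.44, 5.67 and 5.91. All 5 high-fat values of Psmd10 lay above the control mean of 5.06, but overlapped with control animals 4 and 5. The fitted changes were 0.12 ± 0.10 for Psmd9 and 0.14 ± 0.13 for Psmd10 (edgeR, adjusted p = 0.974 for both). Psmd5 had a change of -0.04.

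The activators open the core gate in place of the regulatory particle. Their median coefficient of variation was the highest, at 20.0% against 13.0% to 18.9% in the other classes, but they were not alike. Psme2 had 35.5% and Psme1 22.7%, while Psme4 had 17.3% and Psme3 12.2%, the lowest of all tested members. Psme1 and Psme2 form a joint ring known to be induced by interferon gamma. Psme1 ran from 76.2 through 96.7 to 138 CPM in control offspring and was 145, 100.4, 97.7, 144 and 87.3 in the high-fat animals. In both groups animals 1 and 4 stood above the rest, between 135 and 145 CPM, and the other 7 animals lay between 76.2 and 100.4. The fitted log2 fold change was 0.14 ± 0.19, and 0.04 without high-fat animal 1 or 0.23 without control animal 1. Psme2 ran from 1.31 through 3.16 to 5.07 CPM in control offspring and was 3.33, 2.02, 3.01, 5.80 and 3.46 in the high-fat animals. High-fat animal 4 and control animal 4 were highest and control animal 6 was lowest, and the change of 0.21 ± 0.32 was -0.04 without high-fat animal 4. Psme3, which forms a nuclear activator, ran from 37.8 through 43.5 to 47.7 CPM in control and was 49.2, 43.5, 41.9, 48.0 and 47.1 in high-fat offspring (0.10 ± 0.09). Psme4, a large single-chain activator, ran from 125 through 194 to 209 CPM in control and was 198, 157, 151, 168 and 174 in high-fat offspring (-0.09 ± 0.13). The groups overlapped for all 4.

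Core and regulatory particle mRNAs varied together between animals. Summed over the 32 core and regulatory particle members, immune chains left out, the level was 4494 ± 368 CPM (SD, n = 6) in control and 4492 ± 441 CPM (SD, n = 5) in high-fat offspring. The lowest animal was high-fat animal 5 at 3979 CPM and the highest was high-fat animal 1 at 5183 CPM, so both ends of the range came from the same diet group. Of the 31 tested members, 17 were highest in high-fat animal 1 and 9 in control animal 4. The lowest value belonged to high-fat animal 5 in 10, control animal 2 in 9, control animal 3 in 7 and control animal 4 in 3. Beside this, the summed slow fibre genes were lowest in high-fat animal 5 (60451 CPM) and highest in control animal 4 (94215 CPM), with 74408 CPM in high-fat animal 1. High-fat animal 5 also had the highest leukocyte sum. The summed fast fibre genes were lowest in control animal 3 (1651 CPM) and highest in control animal 4 (33696 CPM). They stood at 12187 CPM in high-fat animal 1 and 8673 CPM in high-fat animal 5. The part of these fibre and leukocyte genes in the core level was not tested.

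**Figure D4:**
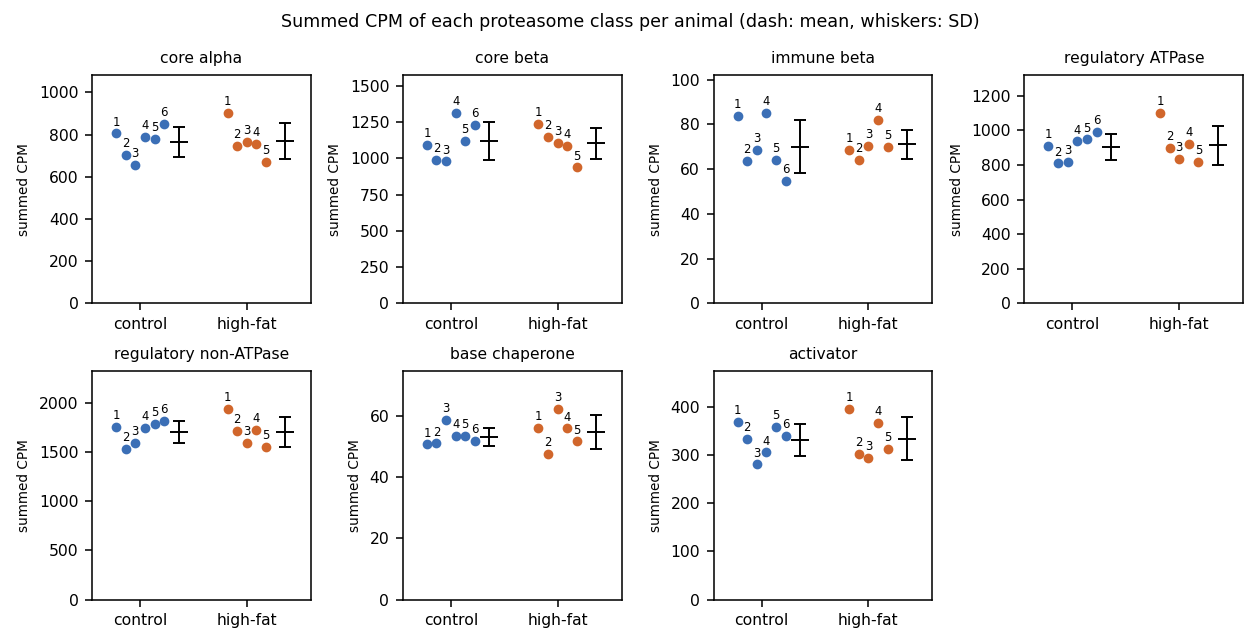
Summed CPM of each class (vertical axes) in every numbered control and high-fat animal, with the mean (dash) and SD (whiskers) of each group. The alpha, ATPase and non-ATPase sums are highest in high-fat animal 1, the constitutive beta and immune sums are highest in control animal 4, and the groups overlap in all 7 panels.

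Pairs of core and regulatory particle members had a median r of 0.63 over 11 animals (465 pairs, 456 of them positive and 66.9% above 0.5). Over all pairs of tested genes the median was -0.00, with 9.32% above 0.5. These values are descriptions, since all pairs share the same 11 libraries and their scaling. With library size scaling the members' median was 0.42 and that of all genes was 0.14. Constitutive beta chains had a median of 0.75, with all 21 pairs above 0.5, ATPases 0.77, alpha chains 0.66 and non-ATPase chains 0.58. With library size scaling the beta chains' median was 0.50. The closest pairs were Psma6 with Psmc2 and Psmc4 with Psmd8, both at 0.95, of which the first joins the core to the regulatory particle and the second lies within the regulatory particle. Against the mean of the other 30, Psmc2 had r = 0.95, and Psmb4 and Psmb7 both had 0.93.

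The immune chains stood outside this pattern. Their pairs with the 31 core and regulatory particle members had a median r of 0.10 (93 pairs, from -0.57 to 0.69), and Psmb8, Psmb9 and Psmb10 had r of -0.24, 0.25 and 0.19 with the members' mean. Among themselves they had r of 0.49 (Psmb8 with Psmb9), 0.55 (Psmb8 with Psmb10) and 0.31 (Psmb9 with Psmb10). Psmb8 was closest to the activator Psme2 (r = 0.85), and Psme1 had r of 0.58 with Psme2 but also 0.69 with the core and regulatory mean. Psme3, Psme4 and the chaperones Psmd5, Psmd9 and Psmd10 had r between -0.11 and 0.17 with that mean.

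Psmc6, an ATPase, had the weakest relation with the mean of the other 30 members (r = 0.36), and was singled out after its values were seen. All 9 negative pairs among the 465 involved it, the lowest with Psmb5 (r = -0.31), while it had r of 0.91 with Psmd6 and 0.87 with Psmd12. Psmc6 ran from 65.6 through 93.4 to 102 CPM in control offspring and was 105, 81.5, 83.5, 79.1 and 84.6 in the high-fat animals. Control animal 4, which had the highest Psmb5 and Psmb6, had the lowest Psmc6. It also had the lowest Psmd6 (106 CPM) and Psma1 (92.9 CPM), so Psmc6 was not alone in this. Without control animal 4 no pair was negative and the median r was 0.70, so the negative pairs rest on that library. With library size scaling 68 pairs were negative, 8 of them with Psmc6.

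**Figure D5:**
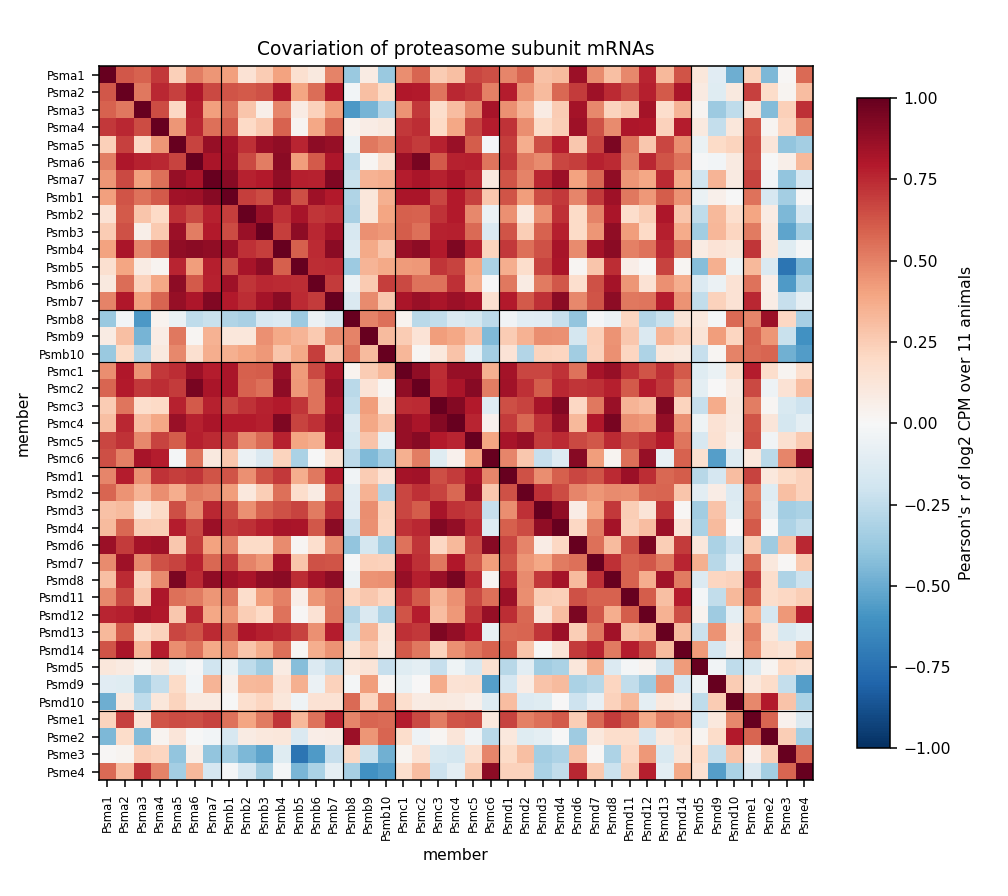
Pearson's r of log2 CPM over 11 animals for every pair of the 41 tested members, ordered by class along both axes, with black lines between classes and red for positive r. The core and regulatory blocks are mostly red (median 0.63), apart from the stripe of Psmc6, and the immune stripe against them is pale (median 0.10).

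Promoter sequences of the members were searched for motifs known from proteasome genes. RefSeq promoters (assembly GRCr8, 250 bases before to 50 after the start) matched 38 of 43 members. Psma7, Psmb11, Psmd6, Psmd12 and Psmd14 had none in the table. The core of the interferon-stimulated response element, GAAA and again GAAA with any 2 bases between them, was present in 3.92% of all 33469 promoters and 2.79% of the 8043 of tested genes. It was in 6 member promoters, which are those of Psma4, Psmb3, Psmb8, Psmb10, Psmd7 and Psme2. The following 3, with the match in capitals, belong to the 2 immune chains that hold it and to Psme2, the activator closest to Psmb8, and read 5′ to 3′ towards the start site on the gene's strand. Psmb8 lies at chr20:4657026-4657181 on the minus strand, Psmb10 at chr19:50743293-50743442 on the minus strand and Psme2 at chr15:33052752-33052901 on the minus strand.
Psmb8: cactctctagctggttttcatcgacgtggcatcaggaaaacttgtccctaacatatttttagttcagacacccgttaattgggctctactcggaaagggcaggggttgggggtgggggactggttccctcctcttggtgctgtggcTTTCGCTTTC
Psmb10: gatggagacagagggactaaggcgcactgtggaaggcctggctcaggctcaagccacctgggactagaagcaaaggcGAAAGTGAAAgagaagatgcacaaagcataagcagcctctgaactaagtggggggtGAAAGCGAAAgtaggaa
Psme2: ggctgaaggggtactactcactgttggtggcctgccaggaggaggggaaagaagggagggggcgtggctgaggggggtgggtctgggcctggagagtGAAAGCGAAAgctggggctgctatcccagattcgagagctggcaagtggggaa
The match ends the shown stretch of Psmb8, which runs 6 bases past the start, is present at 2 positions in Psmb10, and is not in the 300-base window of Psmb9. A match is a run of letters and not a measured binding site.

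The antioxidant response element core, TGACNNNGC, is the motif through which Nfe2l1 is known to drive proteasome genes together. It was in 8 of the 38 member promoters, and in 12.1% of all promoters and 14.7% of those of tested genes. Holders were Psma3 among the alpha chains, Psmb2, Psmb5 and Psmb6 among the constitutive beta chains, Psmd1, Psmd3, Psmd9 and Psme4. None of the 6 ATPase promoters or the 3 immune chain promoters had it in this window. Psmb5 (chr15:32047380-32047529, minus strand) and Psmb6 (chr10:55737738-55737887, plus strand) are shown, being the chains that Psmb8 and Psmb9 replace, with the match in capitals.
Psmb5: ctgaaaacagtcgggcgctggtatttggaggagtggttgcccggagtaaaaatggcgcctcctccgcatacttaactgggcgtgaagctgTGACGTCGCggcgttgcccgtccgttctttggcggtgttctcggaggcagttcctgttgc
Psmb6: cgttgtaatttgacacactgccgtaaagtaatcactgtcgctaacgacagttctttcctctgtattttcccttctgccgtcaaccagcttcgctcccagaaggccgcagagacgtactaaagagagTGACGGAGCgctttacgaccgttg
The shorter form TGANNNNGC, which contains the first, was in 20 member promoters, among them all 7 constitutive beta chains and the immune chain Psmb9, and in 43.3% of tested-gene promoters. CCAAT was in 19 member promoters and in 37.5% of tested-gene promoters, the GC box GGGCGG in 27 and in 62.9%, and the ETS site CCGGAAGT in 7 and in 8.32%. The gamma-activated site TTCNNNGAA was in 4 and in 6.50%. The site of nuclear respiratory factor 1, which is not Nfe2l1, is GCGCA joined to its reverse complement TGCGC. It was in 1 member promoter, that of Psma2, and in 1.96% of tested-gene promoters. All motifs were searched on both strands.

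Genes that build, control and feed the proteasome were taken from lists, and none of them passed adjustment (edgeR, adjusted p of at least 0.974 for each gene named in this paragraph). Of 4 tested chaperones of core assembly 1 had a fold change above 0 and 3 below (median -0.04), with Psmg2 at -0.13 ± 0.14 and Psmg1 at -0.07 ± 0.11. The inhibitor Psmf1 stood at 50.2 ± 3.65 CPM (SD, n = 6) against 44.2 ± 3.83 CPM (SD, n = 5) and a change of -0.19 ± 0.09 (edgeR, unadjusted p = 0.0559). Akirin2, which carries proteasomes into the nucleus, had -0.08 ± 0.11. Of 9 associated deubiquitinases and ubiquitin receptors 5 were above 0 and 4 below, led by Uchl5 (0.17 ± 0.12) and Ubqln4 (-0.14 ± 0.13). Among 7 genes of transcriptional control, 4 were above 0, and Nfya (0.47 ± 0.18) and Nfyc (-0.19 ± 0.08), subunits of the CCAAT-binding factor, had unadjusted p of 0.0219 and 0.0274 in edgeR, with opposite signs. Of 6 ubiquitin and E1 genes 4 were above 0, with Uba1, the main ubiquitin-activating enzyme, at 0.10 ± 0.09. Of 5 genes of the VCP segregase, which extracts ubiquitin-tagged proteins, 3 were above 0, with Vcp at 0.06 ± 0.09 and Faf2 at 0.13 ± 0.12.

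Of 8 muscle ubiquitin ligases, which mark proteins for the proteasome, 6 had fold changes above 0 (median 0.13). Fbxo30, linked to muscle loss after nerve damage, stood at 17.4 ± 4.31 CPM (SD, n = 6) in control and 26.2 ± 8.36 CPM (SD, n = 5) in high-fat offspring, a change of 0.59 ± 0.22 (edgeR, unadjusted p = 0.0185, adjusted p = 0.974). Nedd4 had 0.20 ± 0.11. Fbxo32 and Trim63, the ligases best known from atrophy and named here outside the rule, had changes of -0.01 ± 0.20 and 0.38 ± 0.33. All 8 antigen processing genes, which handle the peptides that proteasomes release, had fold changes above 0 (median 0.23, where 50.9% of all genes were above 0). Erap1, a peptide trimmer, had 0.32 ± 0.14 and B2m, the light chain of the class I complex, 0.32 ± 0.15, with unadjusted p of 0.0422 and 0.0480 in edgeR and adjusted p of 0.974. Of 13 interferon-response genes 8 were above 0 and 5 below (median 0.12), with Stat2 at 0.26 ± 0.10 and Irf7 at -0.56 ± 0.26, which was -0.31 without control animal 4, and none passed adjustment. The leukocyte genes above, whose median was 0.43, are present beside these lists, and their part in them was not tested.

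The remaining lists held markers of other cells in the muscle, and no gene of them passed adjustment in edgeR. Of 6 neutrophil genes 3 were tested and all were above 0, with S100a8 at 2.28 ± 0.69 and S100a9 at 1.83 ± 0.74, which became 1.39 and 0.97 without high-fat animal 4, and Mpo, Elane and Cxcr2 averaged under 1 CPM. Of 6 endothelial genes 4 were above 0 and 2 below (median 0.08, Cldn5 0.38, Emcn -0.32). Of 7 fibroblast genes 5 were above 0 and 2 below (median 0.32, Dcn 0.58, Pdgfra 0.41), the 2 below being the collagens Col1a1 (-0.19) and Col3a1 (-0.09). Of 5 fat cell genes 2 were above 0 and 3 below (median -0.03, Fabp4 0.06), and Plin1 at -0.39 was -1.10 without high-fat animal 5 and -0.07 without control animal 3. Of 6 regeneration genes 5 were above 0 (median 0.22), and Myf5 at 0.45 and Myog at 0.25 were 0.27 and 0.06 without high-fat animal 1. The exception was Myh8 at -0.58. All 5 nerve sheath genes were below 0, with Mbp at -2.28, which was -0.17 without control animal 5. Of 7 slow fibre genes 1 was above 0 and 6 below (median -0.11, Tnni1 -0.13, Tnnt1 -0.11). Of 8 fast fibre genes 7 were below 0 (median -0.79) and 1, Pvalb, was above 0 at 0.51. Among those below, Myh4 was at -1.63 and Myh1 at -1.19, and these were -0.12 without control animal 2 and -0.19 without control animal 5.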

How the data were processed

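Libraries were made from poly(A) RNA, starting with 2 µg of total RNA, and read for 36 cycles, per the labels' protocols. The authors deposited raw read counts per gene symbol for the 11 animals. FastQC, BWA, HTSeq and edgeR are listed without versions, per the submitters' processing notes. Genome build, annotation and strand setting: not given in the sources used here. In RefSeq 18 members have named pseudogenes, 44 in all and 7 for Psmb3, and short reads may have been split between copies.

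Control animals 1 to 6 are labelled C73, A110, C60, H10, A89 and A75, and high-fat animals 1 to 5 are C91, H1, C25, H20 and A37. Some column names carry other numbers for the high-fat animals. The labels name separate litters, so each animal was a replicate. filterByExpr kept 10814 genes and removed 5996. Counts were scaled by TMM (factors 0.897 to 1.12) and tested with edgeR's quasi-likelihood F test (common biological coefficient of variation 0.234) over all genes kept, adjusted after Benjamini-Hochberg, threshold 0.05. Standard errors are the log2 fold change over the square root of F. Correlations and ratios used log2 CPM with a prior count of 2 and, where a p is given, 100000 random pairings or all splits of the 11 animals into 6 and 5. The test was tested on simulated data (10787 genes, 6 false calls).

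Alternatives were RLE, upper quartile and library size scaling, no filter, a stricter filter (at least 5 CPM in 5 libraries), DESeq2, edgeR's likelihood ratio test, limma voom, the first letter of the animal's label as a covariate, prior counts of 0.5 and 5, a replicate block from the numbers in the column names, and leaving out each library. Named genes were Psmb5 to Psmb10, Psme1 to Psme4, the 2 members with the smallest unadjusted p in each other class and up to 2 genes per list, a few of which are not reported here. Cd4, Cd8a, Col1a1, Col3a1, Myh8, Pvalb and Psmc6 were added after their values were seen. A further member per class was to be chosen by its level per coding length, which was not used here. The members and lists were chosen with earlier results of these data known. Psmg3, Ecpas, Ube3c, Ufd1, Fbxo40, Nlrc5 and Kdr are not analysed here. Sem1 was read from the row Shfm1 and Adgre1 from Emr1. Python 3.11.15 was used with SciPy 1.17.1, pandas 2.3.3, NumPy 2.4.6 and matplotlib 3.10.9, and R 4.3.3 with DESeq2 1.42.0, limma 3.58.1 and edgeR 4.0.16.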

Additional observations from a re-analysis of the deposited data

Results flagged for a closer look

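Checked in each diet group were the members, the sums of their classes and the ratios of immune chains to the chains they replace. Of these 102 groups of values, 3 held a sample far from the others. Chance gives about 1 in 20. In high-fat animal 1 Psmc6 stood at 105 CPM, against 79.1 to 84.6 CPM in the remaining high-fat offspring. Psmd6, whose level followed Psmc6 across animals, was 139.8 CPM in the same animal and 115 to 121 CPM in the others. The summed level of the base chaperones Psmd5, Psmd9 and Psmd10 was 58.8 CPM in control animal 3 and 50.7 to 53.4 CPM in the other control animals.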

How the results depend on the processing

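No member was called and none had an unadjusted p under 0.05 under any alternative run. Over all genes, 0 were called by the main test, 7 by DESeq2 and 8 by edgeR's likelihood ratio test. Library size scaling moved the median pairwise r of the constitutive beta chains to 0.50, that of the immune chains to 0.63, and the negative pairs of core and regulatory members from 9 to 68. The correlation of Psmb10 with the interferon list was 0.23 with library size scaling and 0.02 with RLE scaling. With the label letter as a covariate, fold changes were -0.02 for Psmb7, -0.08 for Psmb9, 0.04 for Psme4 and 0.01 for Plin1. Without high-fat animals 4 and 5, an alternative chosen after seeing the data, they were 0.05 for Psmb6, -0.10 for Psmb8, -0.13 for Psme2, 0.06 for Psmg1 and 0.02 for Akirin2. The cause was not tested.

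Leaving out each library in turn gave ranges of -0.01 to 0.27 for the Psmb8 to Psmb5 ratio, 0.58 to 0.79 for the correlation of Psmb8 with the leukocyte list and -0.20 to 0.27 with the interferon list, and for Psmb10 -0.07 to 0.30 and -0.24 to 0.05. It gave 0 to 23 negative pairs (0 without control animal 4; these counts were added after seeing the data). Fold changes ranged from -0.14 to 0.00 for Psmb5, -0.02 to 0.08 for Psmb7, -0.03 to 0.16 for Psmb8, -0.03 to 0.13 for Psmb9, -0.11 to 0.03 for Psmb10, -0.04 to 0.41 for Psme2, -0.04 to 0.11 for Psmc2 and for Psmc5 and -0.09 to 0.24 for Fabp4. The other results with a test kept their direction and side of the threshold. The deposited column names share 5 numbers between the groups. Same-numbered animals did not deviate together over all genes, with r of their deviations from the group means of -0.35 to 0.04. No animal was closest to its own number. What the number stands for is not given, and 5 pairs cannot show whether it marks a shared batch. With this number as a replicate block, added after seeing the data, 0 members and 0 genes were called, and fold changes were -0.02 for Psmb7, -0.03 for Psmb9, -0.01 for Psmc5 and -0.06 for Fabp4. Depth limits Psme2 most, with as few as 18 counts in a library.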
